A study of Homo sapiens with 12 samples.

Results

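The genes described here lie on the short arm of chromosome 2, where IMR32 neuroblastoma cells are known to carry extra DNA copies around MYCN (band 2p24) and around MEIS1 (band 2p14). They are DDX1, NBAS, MYCNOS, FAM49A, GACAT3 and MEIS1, 6 of the 27514 genes listed by symbol in the deposited table, and were taken by name. Of the 6, 5 had a mean of at least 1 CPM (counts scaled to the size of the library) over the 12 samples and were tested, as were 12680 genes in all. IMR32 is an established human neuroblastoma cell line of the adrenergic kind. All 4 groups were IMR32 cells kept in serum-containing RPMI medium, electroporated with siRNA and harvested for total RNA 72 h later, with 3 samples in each. The siRNA was the control one in siCtrl, targeted MYCN in siMYCN and HAND2 in siHAND2, and both targeting siRNAs were given in the combined knockdown. The titles name 1 siRNA per target, so loss of the target and any other effect of that siRNA cannot be told apart. Copy number was not measured in these samples.

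An amplicon is a stretch of chromosome copied many times over, and genes that sit on it are usually transcribed from all copies, whether or not they are the gene for which the tumour was selected. MYCN, the oncogene of this amplicon in high-risk neuroblastoma, encodes a transcription factor that dimerises with MAX. DDX1 (an RNA helicase of the tRNA ligase complex) and NBAS (a tether for vesicles returning from the Golgi to the endoplasmic reticulum that also takes part in nonsense-mediated decay) are often co-amplified with it. MYCNOS is transcribed from the opposite strand of the MYCN locus, FAM49A (now CYRIA) encodes a protein that binds active RAC1 and restrains the actin-nucleating WAVE complex, and GACAT3 is a long non-coding RNA. MEIS1, a homeobox factor of the TALE class and a partner of HOX proteins, is known as a second amplified gene of this line.

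In the hg19 build, NBAS spanned chr2:15307032-15701473 on the minus strand and DDX1 spanned chr2:15731745-15771236 on the plus strand. MYCNOS (chr2:16076387-16082372, minus strand) shared 1813 bases with the plus-strand gene MYCN (chr2:16080560-16087130). GACAT3 (chr2:16190549-16225812, plus strand) and FAM49A (chr2:16730730-16847135, minus strand) followed beyond MYCN. DDX1 lay 309324 bases from MYCN, NBAS 379087, GACAT3 103419 and FAM49A 643600. MEIS1 (chr2:66662532-66799892, plus strand) lay 50575402 bases away and held MEIS1-AS2, an antisense gene of 1237 bases, on its other strand. Whether reads were counted by strand is not given in the sources used here. Reads of MYCNOS and MYCN in their shared bases, and of MEIS1 and MEIS1-AS2, therefore cannot be told apart.

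Depth, taken from how far apart the lowest values lie, ranged from 31.6 to 64.2 M reads per sample. The share of reads that fell in listed genes averaged 65.1% ± 0.736 (SD, n = 3) for siCtrl, 62.4% ± 0.979 for siMYCN, 59.4% ± 2.39 for siHAND2 and 51.4% ± 7.04 for the combined knockdown, where replicate 3 had the lowest share of all samples, 44.3%. Deposited CPM is scaled to all reads of the library, listed or not, so values are also given after median-ratio rescaling, in which a sample's size factor is the median, over genes, of its level relative to the gene's geometric mean. In the combined knockdown the median log2 fold change of all tested genes was -0.28 in deposited CPM and 0.045 after rescaling. The siRNA targets followed the labels: MYCN averaged 1009 CPM ± 42.6 for siCtrl, 682 ± 22.8 for siMYCN, 849 ± 48.7 for siHAND2 and 482 ± 64.3 for both siRNAs together. After rescaling these means were 919, 625, 863 and 561 CPM. The log2 fold change of MYCN from siMYCN to the combined knockdown was -0.51 in deposited CPM (limma adjusted p = 0.000701). It was -0.16 after rescaling (limma adjusted p = 0.0535). HAND2 was at 26.0% of its siCtrl mean in siHAND2 and 30.7% in the combined knockdown. In siMYCN HAND2 was higher, at a mean of 326 CPM against 239 CPM in siCtrl. That log2 fold change was 0.44 (limma adjusted p = 0.00618), and 0.45 after rescaling (limma adjusted p = 0.00107). Of 10 noradrenergic neuroblastoma markers 9 had a mean of at least 1 CPM, the exception being TH, while none of 4 blood cell markers did. These are RNA levels of whole cultures, in which fewer cells of a type and less RNA per cell cannot be told apart. The labels do not say that the 3 samples of a group were separate cultures, so p-values measure only the spread between these samples.

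In control cells the genes ranged from among the most abundant of the transcriptome to undetected. The scale here is CPM per kb of spliced transcript, ranked over 12313 genes whose length was known. DDX1 stood at 3406 ± 127 CPM per kb in siCtrl (SD, n = 3), rank 3, with 26 exons joined into 2484 bases. NBAS, whose 52 exons make 7278 bases, stood at 547 ± 14.0, rank 109. MYCN itself stood at 386 ± 16.3, rank 144, and MEIS1 at 75.2 ± 4.09, rank 580. Those genes lay far above the median of the ranked genes, 6.11 CPM per kb, and above the median of the 359 ranked genes of the chromosome arm, 10.2. MYCNOS stood at 14.0 ± 0.939 CPM per kb, a value that rests on a non-canonical transcript model and could include reads of MYCN. FAM49A, at 0.817 ± 0.106 CPM per kb and rank 11154, was among the least abundant of the ranked genes. Each step in this order was larger than the SDs of the genes on either side of it. Together the 6 genes took 1.28% of all siCtrl reads, beside 1.18% of siMYCN reads, 1.18% of siHAND2 reads and 0.902% with both siRNAs.

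GACAT3 was listed at the constant of 0.0001 that had been added to every value, in all 12 samples, and was not tested. A count of 0 allows a level of up to 3 reads, which corresponds to 0.0468 to 0.0949 CPM in these samples and covers counting error only. Between MYCN and FAM49A, both detected, GACAT3 is thus a gene of the amplicon region with no read at this depth. The same was true of 6389 of all 27514 listed genes, which were at the constant in all samples.

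**Figure D1:**
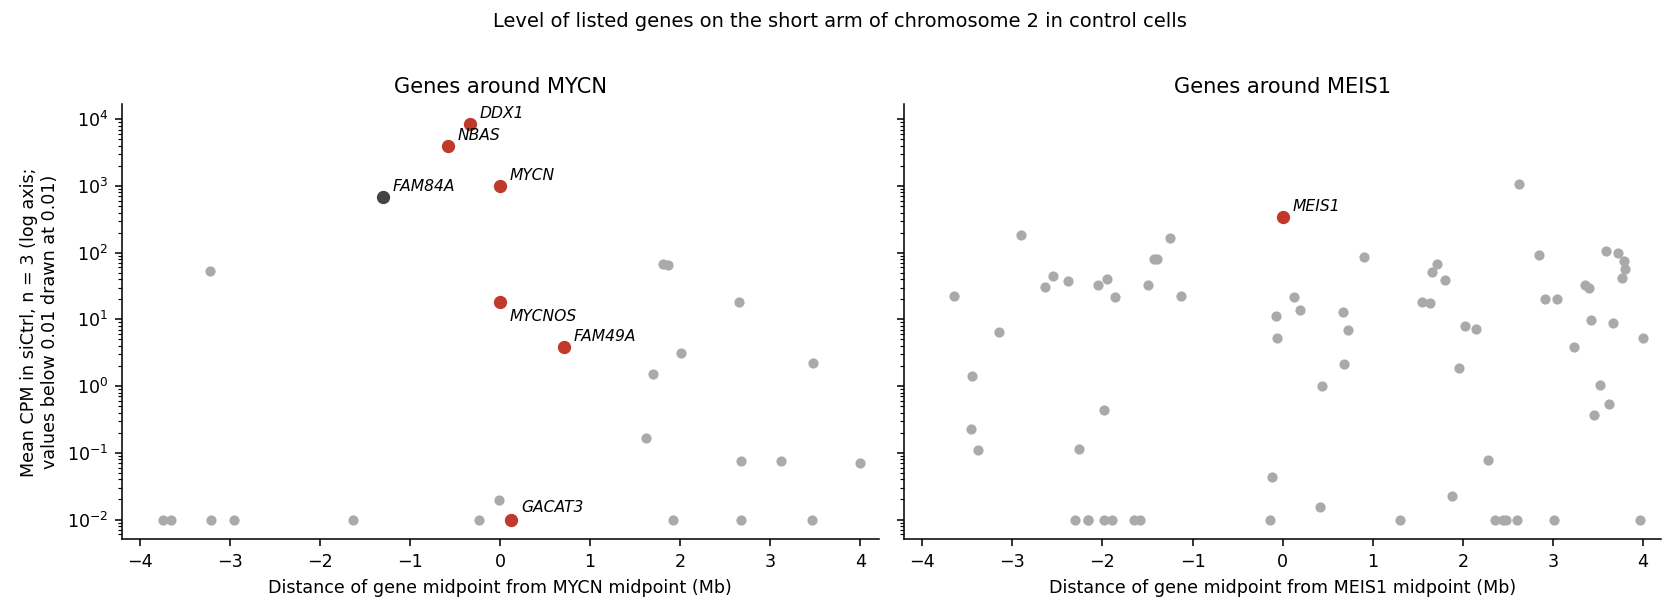
Mean CPM in siCtrl (n = 3, log axis, values under 0.01 drawn at 0.01) of listed genes against the distance of their midpoint from that of MYCN (left) or MEIS1 (right), within 4 Mb. The genes described here and MYCN are red, FAM84A is dark and other genes are grey. DDX1 and NBAS are the highest points beside MYCN, FAM49A lies far below both, among other detected genes, and GACAT3 lies at the floor.

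The 250 bases before the annotated start are shown for the 2 pairs of genes whose levels ran most alike over the samples, MEIS1 with MYCNOS and DDX1 with NBAS. The sequences are RefSeq's, read 5′ to 3′ on the gene's own strand in build GRCh38.p14, at chr2:66434875-66435124 (plus) for MEIS1, chr2:15941686-15941935 (minus) for the MYCNOS start that held a match, chr2:15591618-15591867 (plus) for DDX1 and chr2:15561335-15561584 (minus) for NBAS. Capitals mark CATCTG, an E-box form bound by HAND2-type factors, or CAGATG, the same letters on the other strand.
MEIS1: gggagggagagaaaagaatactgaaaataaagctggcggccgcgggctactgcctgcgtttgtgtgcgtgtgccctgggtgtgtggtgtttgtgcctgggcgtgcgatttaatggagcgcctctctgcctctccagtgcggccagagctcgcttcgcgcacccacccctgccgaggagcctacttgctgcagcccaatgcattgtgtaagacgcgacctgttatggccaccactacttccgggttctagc
MYCNOS: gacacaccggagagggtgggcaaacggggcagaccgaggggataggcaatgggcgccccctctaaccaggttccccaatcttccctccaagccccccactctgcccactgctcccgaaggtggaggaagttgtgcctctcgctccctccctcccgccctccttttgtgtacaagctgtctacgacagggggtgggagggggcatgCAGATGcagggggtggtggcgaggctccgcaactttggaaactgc
DDX1: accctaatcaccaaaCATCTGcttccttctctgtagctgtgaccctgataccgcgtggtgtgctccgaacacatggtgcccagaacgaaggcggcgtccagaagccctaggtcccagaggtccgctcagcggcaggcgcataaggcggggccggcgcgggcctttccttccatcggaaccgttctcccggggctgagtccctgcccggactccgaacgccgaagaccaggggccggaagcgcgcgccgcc
NBAS: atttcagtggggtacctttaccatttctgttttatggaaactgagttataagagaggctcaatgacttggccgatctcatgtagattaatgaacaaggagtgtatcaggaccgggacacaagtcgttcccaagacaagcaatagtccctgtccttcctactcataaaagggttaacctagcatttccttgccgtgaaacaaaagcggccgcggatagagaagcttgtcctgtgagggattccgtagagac

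A search on both strands, over windows from 250 bases before to 50 bases after the start, covered the motif in capitals above. It also covered CACGTG, the E-box of MYC-family dimers. The last motif was TGACAG, the core bound by MEIS proteins. CATCTG began 235 bases before the start of DDX1, and its reverse complement began 45 bases before that start of MYCNOS. None of these motifs contains another, though neighbouring matches could share end bases. The windows of NBAS, MEIS1, GACAT3 and the other MYCNOS start held none of these letters. CACGTG and TGACAG were found in none of the 6 windows, which are 2 of MYCNOS and 1 each of DDX1, NBAS, MEIS1 and GACAT3. FAM49A was not searched. Of 35116 windows of this length 14.7% held CATCTG, 7.26% CACGTG and 15.8% TGACAG. These are letter matches only.

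Against this layout, the first comparison asks how each gene changed in each knockdown. A gene is called when its limma adjusted p over all 12680 genes is under 0.05. The fits hold no term for the replicate number of the titles (a block) unless one is named. Same-numbered samples of siMYCN deviated together with those of siCtrl and of siHAND2, a pairing that fits without the block leave out. After siMYCN 3 of the 5 tested genes rose (FAM49A, MYCNOS and MEIS1) and none fell, where 33.7% of all tested genes were called, 17.4% higher and 16.3% lower. The same 3 were called after rescaling, where 47.9% of all genes were, 25.4% higher and 22.5% lower. With the block in deposited CPM they were called too, where 4926 of all 12680 genes were. Their limma adjusted p were 1.39e-06 for FAM49A, 0.000332 for MYCNOS and 0.00363 for MEIS1. After siHAND2 MYCNOS and MEIS1 fell and no gene rose, where 42.7% of all genes were called, 12.3% higher and 30.4% lower. After rescaling FAM49A was called higher as well, where 50.8% of all genes were called, 25.9% higher and 24.9% lower. After both siRNAs FAM49A rose, and DDX1 and NBAS fell in deposited CPM, where 67.4% of all genes were called, 17.4% higher and 50.1% lower. The calls of DDX1 and NBAS were not kept after rescaling, which left 1 of 5 called where 70.7% of all genes were, 37.7% higher and 33.0% lower. The 3 of 5 called in the combined knockdown, and the 1 of 5 after rescaling, are thus near or below the share of all genes. When the replicate number of the titles was also fitted as a block, FAM49A, MEIS1, MYCNOS and NBAS were called after rescaling. Their limma adjusted p were 6.57e-08, 0.0242, 0.0109 and 0.0455, with NBAS alone lower. In that fit 9162 of all 12680 genes were called. Over the 5 genes the log2 fold change had a median of 0.41, -0.14 and -0.21 in the 3 knockdowns, beside 0.0056, -0.14 and -0.28 over all genes. Groups of 3 samples that did not overlap with siCtrl were common: 61.0%, 62.8% and 65.0% of all genes showed this in the siMYCN, siHAND2 and combined comparisons.

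**Figure D2:**
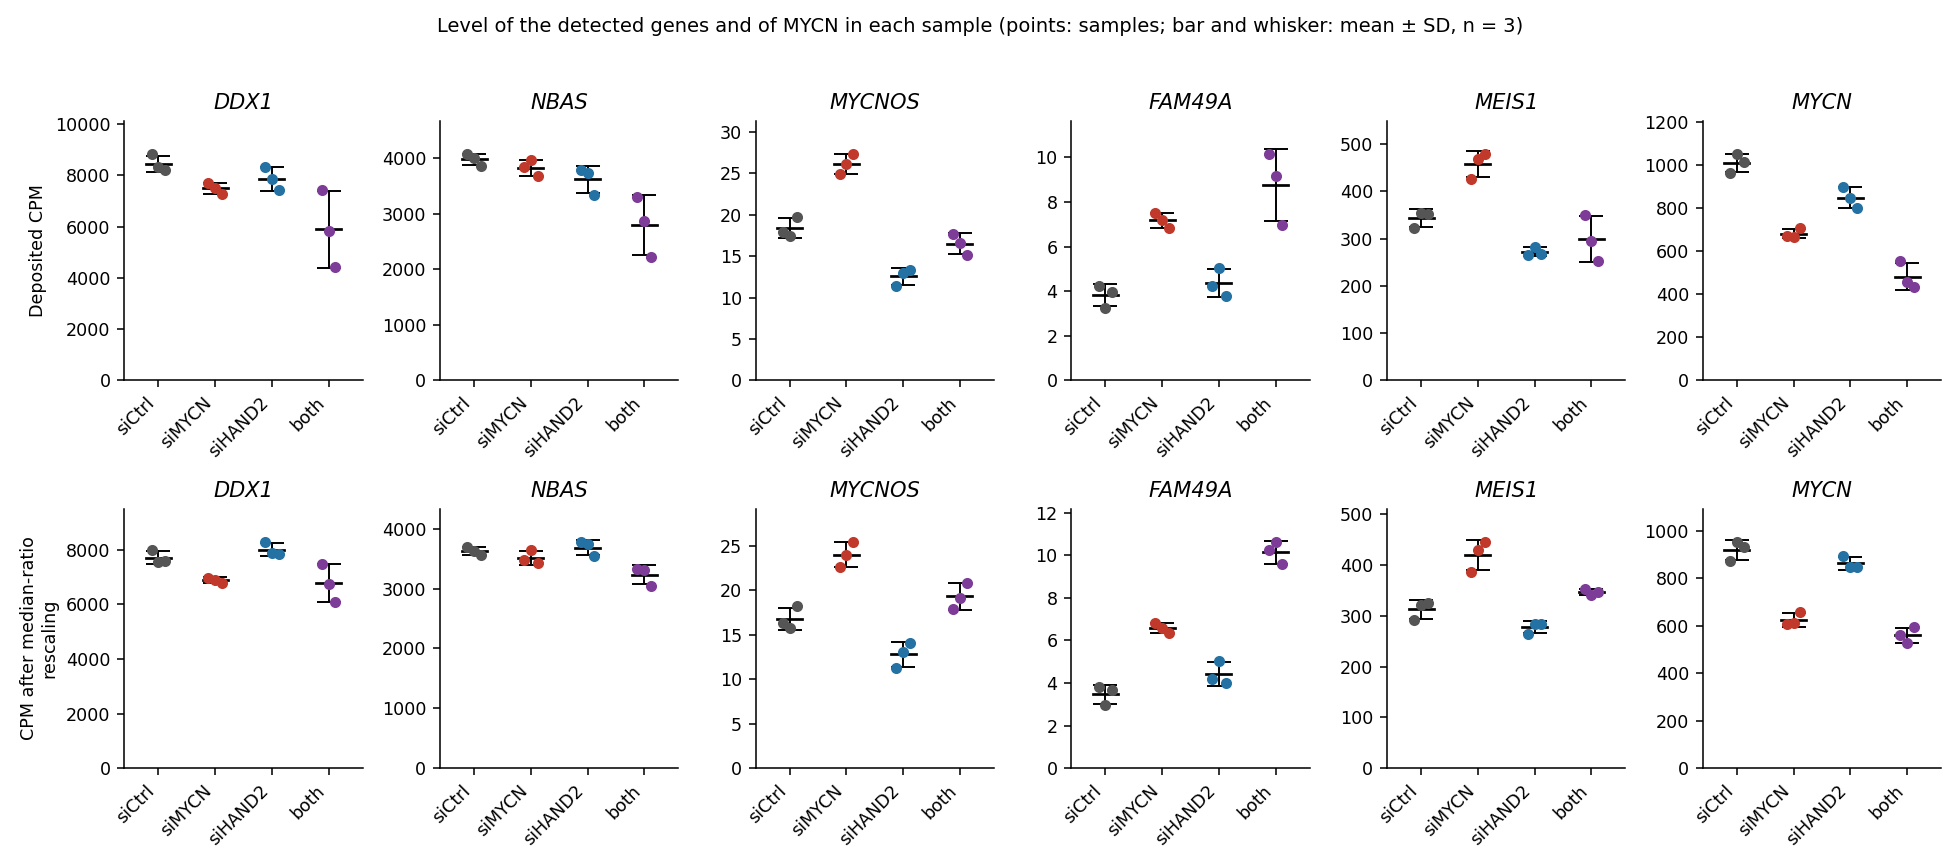
Level of DDX1, NBAS, MYCNOS, FAM49A, MEIS1 and MYCN in each sample, as deposited CPM (upper row) and after median-ratio rescaling (lower row). Points are samples in replicate order, and bars and whiskers are means ± SD (n = 3). The combined knockdown of DDX1 spreads from 4438 to 7422.5 CPM in the upper row and less in the lower row, and MYCNOS and MEIS1 are high in siMYCN and low in siHAND2 in both rows.

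DDX1 was at 8819.5, 8334 and 8228 CPM in siCtrl and at 7707, 7518 and 7278 CPM in siMYCN. It was at 8327, 7862 and 7415 CPM in siHAND2 and at 7422.5, 5836 and 4438 CPM in the combined knockdown. All siMYCN and combined samples lay below all siCtrl samples, siHAND2 overlapped with siCtrl, and the combined samples were the most spread. The log2 fold change was -0.17 ± 0.14 (SE; 95% interval -0.50 to 0.15) after siMYCN, limma adjusted p = 0.371. After siHAND2 it was -0.11 ± 0.14 (limma adjusted p = 0.572), and 0.054 after rescaling. In the combined knockdown it was -0.55 ± 0.14 (limma adjusted p = 0.00133). After rescaling it was -0.19 with a 95% interval of -0.43 to 0.047 (limma adjusted p = 0.112), and the rescaled levels were 7492, 6743 and 6087 CPM against 7563 to 7984 in siCtrl. The highest group mean of DDX1 was 1.43 times the lowest in deposited CPM and 1.18 times after rescaling, beside 1.42 and 1.14 times for NBAS and 2.29 and 2.91 times for FAM49A.

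NBAS was at 4071, 4000 and 3871 CPM in siCtrl and at 3838, 3974 and 3678 CPM in siMYCN. It was at 3797, 3734 and 3342 CPM in siHAND2 and at 3303, 2870.3 and 2221 CPM in the combined knockdown. The siMYCN samples overlapped with siCtrl, the siHAND2 samples lay just below it, and the combined samples lay below all others. The log2 fold changes were -0.056 ± 0.13 after siMYCN (limma adjusted p = 0.779) and -0.14 ± 0.13 after siHAND2 (limma adjusted p = 0.415), the latter 0.023 after rescaling. In the combined knockdown NBAS changed by -0.53 ± 0.13 (limma adjusted p = 0.000957), and by -0.17 with a 95% interval of -0.35 to 0.019 after rescaling (limma adjusted p = 0.0777). The ratio of DDX1 to NBAS, which no scaling can move, averaged 2.13 ± 0.0414 for siCtrl, 1.96 ± 0.0605 for siMYCN, 2.17 ± 0.0596 for siHAND2 and 2.09 ± 0.135 for both siRNAs. Its log2 change from siCtrl was -0.12 after siMYCN, with exact permutation p = 0.1 (two-sided), the smallest that 3 against 3 samples allow. It was 0.032 after siHAND2 (exact permutation p = 0.3) and -0.024 after both (exact permutation p = 0.7).

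MYCNOS was at 18.0, 17.4 and 19.8 CPM in siCtrl and at 25.0, 26.2 and 27.3 CPM in siMYCN. It was at 11.4, 13.0 and 13.3 CPM in siHAND2 and at 17.7, 16.6 and 15.2 CPM in the combined knockdown. The siMYCN samples lay above and the siHAND2 samples below all siCtrl samples, while the combined samples overlapped with siCtrl. MYCNOS rose after siMYCN by 0.49 ± 0.11 (log2 fold change ± SE, limma adjusted p = 0.00103), although the MYCN transcript on the opposite strand fell there by 0.57 on the log2 scale (limma adjusted p = 0.000532). It fell after siHAND2 by 0.52 (SE 0.11, limma adjusted p = 0.00041). Its log2 fold change in the combined knockdown was -0.15 ± 0.11 (limma adjusted p = 0.225) and turned to 0.19 after rescaling (limma adjusted p = 0.0573). Both single-knockdown calls held after rescaling, at 0.49 and -0.36.

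MEIS1 was at 322, 355 and 353 CPM in siCtrl and at 427, 468 and 478 CPM in siMYCN. It was at 266, 283 and 268 CPM in siHAND2 and at 349.8, 296 and 253 CPM in the combined knockdown. As with MYCNOS, the siMYCN samples were the highest and the siHAND2 samples lay below all siCtrl samples, and the combined samples reached from below siHAND2 to within siCtrl. MEIS1 rose after siMYCN by 0.41 ± 0.12 (log2 fold change ± SE, limma adjusted p = 0.00964). In fits without the block, that call was not kept without siCtrl replicate 1 (limma adjusted p = 0.0612) or siMYCN replicate 3 (0.0541). It fell after siHAND2 by 0.33 (SE 0.12, limma adjusted p = 0.0291) in deposited CPM and by 0.17 after rescaling (limma adjusted p = 0.0409). The siHAND2 call was not kept without siCtrl replicate 2 (limma adjusted p = 0.0869) or 3 (0.0934), nor without siHAND2 replicate 1 (0.0861), 2 (0.0546) or 3 (0.0826). In the combined knockdown its log2 fold change was -0.21 ± 0.12 (limma adjusted p = 0.131) in deposited CPM and 0.15 after rescaling (limma adjusted p = 0.0513), where the 3 samples were at 353, 342 and 347 CPM. Without replicate 1 of the combined knockdown it was -0.33 in deposited CPM (limma adjusted p = 0.0053).

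Markers of other cell types also differed between the groups. For 5 fibroblast markers the summed level ran from 107 to 115 CPM for siCtrl, 140 to 151 for siMYCN, 47.8 to 59.7 for siHAND2 and 27.1 to 42.8 for the combined knockdown. Only PDGFRA and COL1A1 of the 5 had a mean of at least 1 CPM, while DCN was at 0.0001 CPM and COL1A2 at 0.0227 CPM in siCtrl. The summed level of 5 Schwann cell markers ran from 1.45 to 1.58 CPM for siCtrl, 2.56 to 3.21 for siMYCN, 1.87 to 2.21 for siHAND2 and 2.32 to 3.07 for both siRNAs. For 3 endothelial markers it ran from 0.551 to 0.776 CPM for siCtrl, 2.05 to 2.82 for siMYCN, 0.886 to 1.45 for siHAND2 and 1.19 to 1.92 for both siRNAs. The Schwann cell and endothelial sums were higher in every knockdown sample than in siCtrl, also in siHAND2, where MEIS1 fell. The part of these markers in the change of MEIS1 was not tested.

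FAM49A was at 4.21, 3.26 and 3.97 CPM in siCtrl and at 7.52, 7.19 and 6.85 CPM in siMYCN. It was at 4.24, 5.03 and 3.79 CPM in siHAND2 and at 10.1, 9.17 and 6.97 CPM in the combined knockdown. The siMYCN and combined samples lay above all siCtrl and siHAND2 samples, and siHAND2 overlapped with siCtrl. FAM49A rose after siMYCN by 0.77 ± 0.13 (log2 fold change ± SE, limma adjusted p = 4.9e-05). It rose after both siRNAs by 1.01 ± 0.13 (limma adjusted p = 1.63e-07), to 2.29 times its siCtrl mean, and by 1.32 after rescaling. After siHAND2 alone its log2 fold change was 0.15 ± 0.13 (limma adjusted p = 0.358) in deposited CPM, and it was called higher after rescaling, at 0.28 (limma adjusted p = 0.0249). These fold changes are of CPM + 1, which understates the change of a gene this low.

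**Figure D3:**
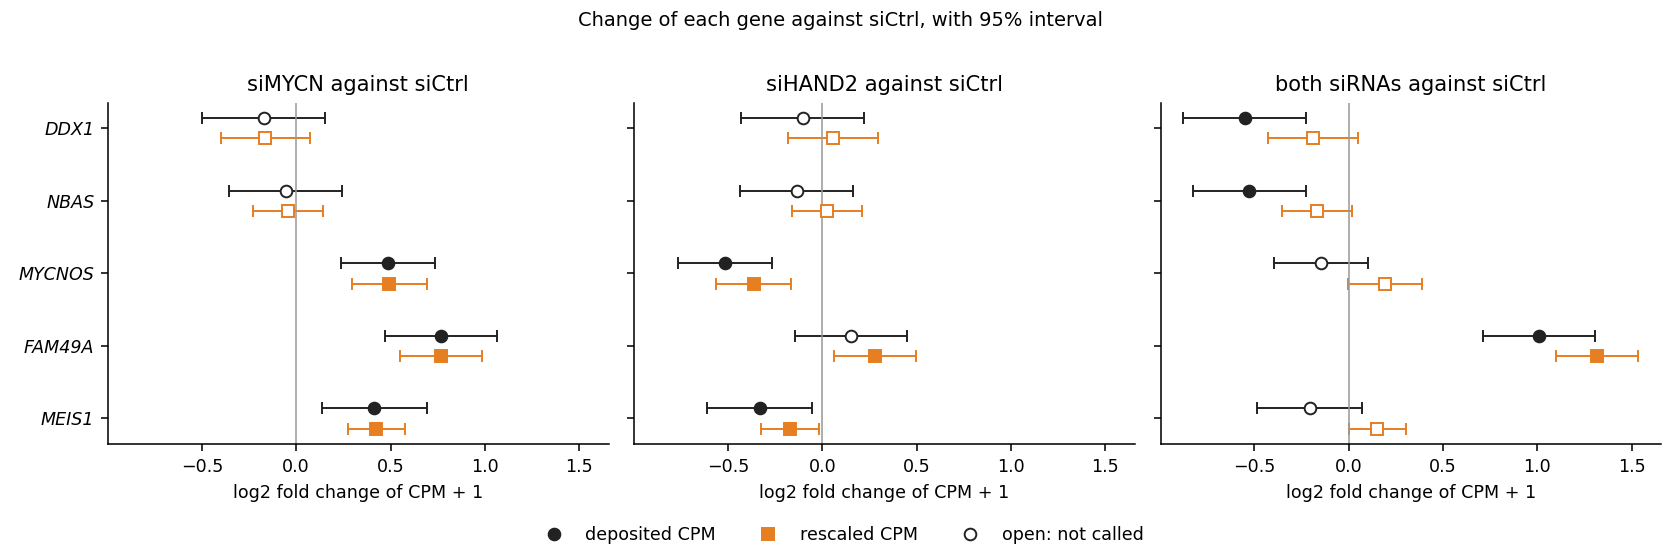
Log2 fold change of CPM + 1 against siCtrl for the 5 tested genes in the 3 knockdowns, in deposited CPM (black circles) and after rescaling (orange squares). Bars are 95% intervals, and open symbols are not called. FAM49A stands apart to the right after siMYCN and after both siRNAs, and in the combined knockdown the orange squares of all 5 genes lie to the right of the black circles.

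Comparing the knockdowns with each other separates the genes further, with the same samples shared between comparisons. Against siMYCN, the combined knockdown was lower for MYCNOS by 0.64 and for MEIS1 by 0.62 on the log2 scale (limma adjusted p = 2.3e-05 and 0.000116), where 58.9% of all genes were called. Of all 12680 genes 6340 were called lower and 1131 higher. The calls of MYCNOS and MEIS1 held after rescaling, at -0.30 and -0.27, where 56.7% of all genes were called. On that scale 3378 were lower and 3806 higher. DDX1 (-0.38, limma adjusted p = 0.0244) and NBAS (-0.47, limma adjusted p = 0.00338) were also called lower, and neither after rescaling, at -0.027 and -0.12. The DDX1 call was also not kept without siMYCN replicate 1 (limma adjusted p = 0.0676), siMYCN replicate 2 (0.0574) or combined replicate 3 (0.212). FAM49A was 0.24 above siMYCN (limma adjusted p = 0.109) in deposited CPM. After rescaling it was called higher, at 0.55 (limma adjusted p = 0.000198), and it was also called in deposited CPM without combined replicate 3, at 0.38 (limma adjusted p = 0.0103).

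Against siHAND2, 40.3% of all genes were called, 3995 of 12680 lower and 1109 higher. After rescaling 2995 were lower and 3305 higher. In deposited CPM the combined knockdown was higher for FAM49A by 0.86 (limma adjusted p = 1.1e-05) and for MYCNOS by 0.37 (limma adjusted p = 0.00848). The MYCNOS call was not kept without siHAND2 replicate 1 (limma adjusted p = 0.0653) and stood at 0.56 after rescaling. MEIS1 was 0.12 higher (limma adjusted p = 0.431) and was called higher after rescaling, at 0.32 (limma adjusted p = 0.000995), where 49.7% of all genes were called. Without combined replicate 3 it was called in deposited CPM as well, at 0.24 (limma adjusted p = 0.0466). DDX1 (-0.45, limma adjusted p = 0.014) and NBAS (-0.39, limma adjusted p = 0.0192) were called lower, and neither after rescaling (-0.25 and -0.19). With the replicate block and rescaling both were called lower (limma adjusted p = 0.0319 and 0.0358). In deposited CPM neither was called without siHAND2 replicate 1 (limma adjusted p = 0.0559 and 0.0762) or combined replicate 3 (0.111 and 0.0992). NBAS was also not called without siHAND2 replicate 2 (0.0713). HAND2 itself was called higher after rescaling in this comparison, at 0.43 (limma adjusted p = 0.00157).

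Set directly against each other, siMYCN and siHAND2 differed for MYCNOS by 1.00, for MEIS1 by 0.75 and for FAM49A by 0.62 on the log2 scale, all higher in siMYCN (limma adjusted p = 5.57e-08, 2.78e-05 and 0.000509), where 35.0% of all genes were called. In deposited CPM 3304 of all 12680 genes were called higher in siMYCN and 1139 lower. The calls of MYCNOS, MEIS1 and FAM49A held after rescaling, at 0.86, 0.60 and 0.49, where 44.5% of all genes were called. With the replicate block in deposited CPM their limma adjusted p were 2.92e-10, 1.1e-06 and 4.89e-05. DDX1 (-0.068, limma adjusted p = 0.736) and NBAS (0.081, limma adjusted p = 0.655) were not called, and NBAS was at -0.069 after rescaling. The interaction, which asks whether the change after both siRNAs differs from the sum of the single changes, was called by limma for 0 of the 5 genes at 4.01% of all genes. None of the 5 had an unadjusted limma p under 0.05. The interaction coefficients ran from -0.33 (NBAS) to 0.090 (FAM49A), where the median of all genes was -0.18. After rescaling they ran from -0.14 (NBAS) to 0.28 (FAM49A), where the median of all genes was -0.0091. On that scale 0 of the 5 were called by limma, where 779 of all 12680 genes were. In deposited CPM without replicate 1 of the combined knockdown, DDX1, MEIS1 and NBAS were called, as were 4443 of all 12680 genes. Their coefficients were -0.45, -0.41 and -0.46 (limma adjusted p = 0.0436, 0.0236 and 0.0335), where the median of all genes was -0.28.

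Ratios to MYCN within each sample do not depend on the library scale. MYCN is itself the target of siMYCN and fell by 0.57 after siMYCN and by 1.07 after both siRNAs on the log2 scale. After rescaling its log2 fold changes were -0.56 and -0.71. A ratio to MYCN is thus higher in those groups by construction for any gene that fell less. The ratio of MEIS1 to MYCN was 0.334, 0.339 and 0.348 in siCtrl and 0.636, 0.703 and 0.676 in siMYCN. It was 0.295, 0.335 and 0.335 in siHAND2 and 0.631, 0.646 and 0.584 in the combined knockdown. The ratios thus hold the fall of MYCN as well as the change of MEIS1, and siHAND2 overlapped with siCtrl. The log2 ratio to MYCN differed between siCtrl and siMYCN by 0.39 for DDX1, 0.51 for NBAS, 1.07 for MYCNOS, 1.49 for FAM49A and 0.98 for MEIS1, each with no overlap between the groups and an exact permutation p = 0.1. With the median of all tested genes as the reference, DDX1 was at -0.19 and NBAS at -0.071 after siMYCN, and at -0.24 and -0.22 after both siRNAs, so both lie above 0 only relative to MYCN. In the combined knockdown the differences relative to MYCN were 0.52, 0.55, 0.92, 2.26 and 0.87, each with exact permutation p = 0.1. After siHAND2 they were 0.15 for DDX1, -0.30 for MYCNOS and 0.44 for FAM49A (exact permutation p = 0.1 each), and 0.11 for NBAS and -0.082 for MEIS1 (exact permutation p = 0.3 each). Over these 15 tests no Benjamini-Hochberg adjusted p was below 0.115, and with 3 against 3 samples no exact p can go below 0.1.

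**Figure D4:**
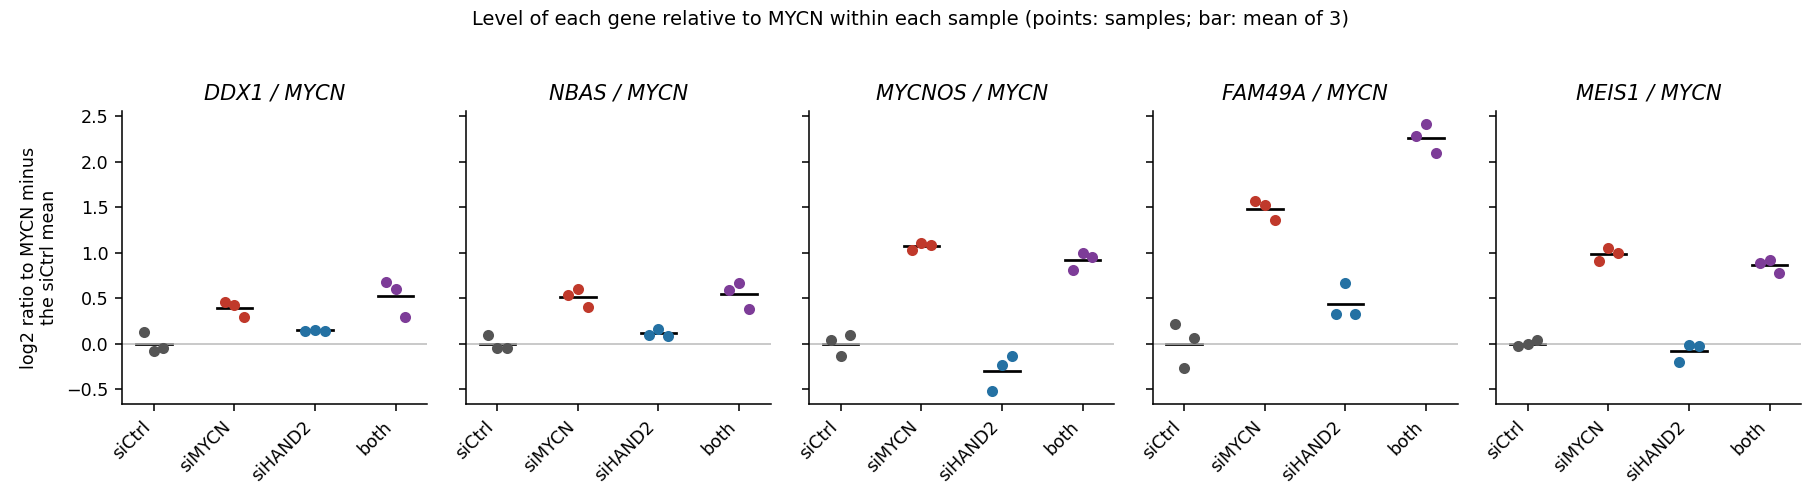
Log2 of the level of each gene over that of MYCN within the same sample, minus the siCtrl mean. Points are samples and bars are means of 3. In siMYCN and in the combined knockdown all points lie above 0 for all 5 genes, with FAM49A highest at means of 1.49 and 2.26, and MYCN, the reference, is the gene that siMYCN targets.

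Other listed genes near the same places did not share 1 direction. Within 2 Mb of MYCN lay 9 further genes, of which 4 were tested. FAM84A, 1288519 bases from MYCN, was at 640, 679 and 735 CPM in siCtrl, and at 1122, 1160 and 1256 CPM in siMYCN. It rose after siMYCN by 0.78, after siHAND2 by 0.81 and after both by 1.31 on the log2 scale (limma adjusted p = 2.41e-05, 8.61e-06 and 1.03e-09). GEN1, a nuclease that resolves Holliday junctions, and SMC6, of the SMC5/6 complex, were each called lower after siHAND2 (-0.64 and -0.41) and after both siRNAs (-1.16 and -0.60) by limma in deposited CPM. VSNL1, a neuronal calcium sensor, was called lower by limma in all 3 knockdowns, at -0.33, -0.33 and -0.38, of which the siMYCN call alone held after rescaling. GEN1 and SMC6 kept their calls on that scale. After rescaling 1 of the 4 was called higher and 2 lower in each knockdown, siMYCN included. Over all genes 25.4% were higher and 22.5% lower on that scale after siMYCN. The shares were 25.9% and 24.9% after siHAND2, and 37.7% and 33.0% after both. In deposited CPM they were 17.4% and 16.3%, 12.3% and 30.4%, and 17.4% and 50.1%.

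Around MEIS1, 22 of 32 genes within 2 Mb were tested, of which 9 rose and 1 fell after siMYCN (17.4% and 16.3% of all genes). After siHAND2 0 rose and 5 fell (12.3% and 30.4% of all genes), and after both 6 rose and 7 fell (17.4% and 50.1%). After rescaling these counts were 11 and 1, 7 and 3, and 12 and 3. On that scale 25.4% of all genes were higher and 22.5% lower after siMYCN. The shares were 25.9% and 24.9% after siHAND2, and 37.7% and 33.0% after both. Lower genes thus outnumbered higher ones after siHAND2 and after both in deposited CPM alone, as they did over all genes. The 1 that fell after siMYCN was PNO1, a ribosome assembly factor (-0.79, limma adjusted p = 3.64e-06). The 9 that rose were SLC1A4, a neutral amino acid transporter, at 0.61, and 8 genes with LINC, LOC or antisense names, a grouping made after their values were seen. Those 8, which were all such genes tested in the window, rose by 0.37 (LINC01797) to 0.78 (MEIS1-AS2), and 7 of them also after rescaling. MEIS1-AS2, inside MEIS1, was at 4.24, 5.80 and 5.58 CPM in siCtrl and at 7.25, 10.6 and 11.3 CPM in siMYCN. After siHAND2 0 of these 8 were called by limma in deposited CPM, the values running from -0.34 to 0.29, and 2 were called higher after rescaling. After both siRNAs 6 of the 8 rose in deposited CPM and 8 after rescaling, while MEIS1 itself was not called on either scale without the replicate block. The 22 genes had a median log2 fold change of 0.22 after siMYCN, -0.027 after siHAND2 and 0.047 after both, beside 0.017, -0.16 and -0.27 over the 370 tested genes of the chromosome arm. After rescaling these medians were 0.23, 0.13 and 0.39, beside 0.026, -0.028 and 0.063 over the arm.

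Of 10 other TALE homeobox genes 9 were tested: 1 rose and 4 fell after siMYCN, 0 rose and 4 fell after siHAND2, and 1 rose and 7 fell after both. Over all genes 17.4% rose and 16.3% fell, 12.3% and 30.4%, and 17.4% and 50.1%. After rescaling the counts of TALE genes were 3 and 4, 1 and 4, and 2 and 6. Over all genes 25.4% rose and 22.5% fell on that scale, 25.9% and 24.9%, and 37.7% and 33.0%. MEIS2, the closest relative of MEIS1, averaged 8.77 ± 0.647 CPM for siCtrl, 6.80 ± 0.128 for siMYCN, 3.96 ± 0.274 for siHAND2 and 2.04 ± 0.308 for both. It fell in all 3 knockdowns, by 0.32, 0.98 and 1.69 on the log2 scale (limma adjusted p = 0.028, 1.44e-07 and 1.72e-12). MEIS3 rose after siMYCN by 0.68 (limma adjusted p = 0.000209) and after both by 0.45 (limma adjusted p = 0.00365), as MEIS1 did after siMYCN. The repressors TGIF1 (-0.54) and TGIF2 (-0.48) and the MEIS-related PKNOX2 (-0.40) were the others that fell after siMYCN.

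Counts for the known partners of DDX1, NBAS and FAM49A stand beside these shares of all genes after siMYCN, after siHAND2 and after both. In deposited CPM 16.3%, 30.4% and 50.1% of all genes were called lower, and 17.4%, 12.3% and 17.4% higher. After rescaling 22.5%, 24.9% and 33.0% were called lower, and 25.4%, 25.9% and 37.7% higher. Counts are in deposited CPM unless rescaling is named. In the tRNA ligase complex, of which DDX1 is a subunit, 1 of 6 partners fell after siMYCN (FAM98A, -0.38), 0 changed after siHAND2 and 4 fell after both, among them the ligase RTCB (-0.52). After rescaling 2 were lower after siMYCN, 0 changed after siHAND2, and 2 were lower and 1 higher after both. Of 8 NBAS partners in vesicle tethering and fusion, 1 fell after siMYCN (SCFD2, -0.50), 4 after siHAND2 and 5 after both, with the tether subunit ZW10 at -1.11 and RINT1 at -0.46 in the last. After rescaling 4 were lower and 1 higher after siMYCN, 3 lower and 1 higher after siHAND2, and 2 lower and 3 higher after both. Of 11 nonsense-mediated decay factors, 2 fell after siMYCN (DHX34, -0.58, and UPF3B, -0.50), 1 after siHAND2 and 7 after both. After rescaling the counts were 3 lower, 1 lower, and 3 lower and 1 higher. Of 11 RAC1 and WAVE genes, 0 rose and 1 fell after siMYCN, 1 rose and 3 fell after siHAND2, and 1 rose and 7 fell after both, which became 3 and 2, 2 and 3, and 3 and 3 after rescaling. FAM49B, the paralog of FAM49A, was at -0.16 after siMYCN (limma adjusted p = 0.277) and fell by 0.44 and 0.67 after siHAND2 and after both (limma adjusted p = 0.00232 and 9.06e-06), and by 0.28 and 0.31 after rescaling.

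Over the 12 samples, after rescaling, MYCNOS and MEIS1 ran together (Pearson r = 0.953), as did DDX1 and NBAS (r = 0.825), while FAM49A ran against MYCN (r = -0.961). These are descriptions over 4 groups that share the same libraries. Among 10192 genes with a mean of at least 5 CPM, the ones most like MEIS1 were SEC22C (r = 0.992), MAB21L1 (0.967) and SPSB4 (0.963). Those most like MYCNOS were PHTF1 (0.984), HEBP2 (0.963) and FAM102B (0.963), and those most like FAM49A were TMUB2 (0.980), TUBB2A (0.978) and KCTD7 (0.978). For NBAS they were CANX (0.977) and SF3B3 (0.946), and for DDX1 PIM3 (0.954), ZNF282 (0.942) and GARS (0.939). None of the genes named here as most alike lies on chromosome 2.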

How the data were processed

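RNA sequencing of 12 IMR32 samples in 4 groups was analysed. The authors deposited CPM per gene with a constant of 0.0001 added, and the submitters' processing notes name STAR 2.5.1, Partek and hg19. The counting settings and annotation are not given in the sources used here. The range of depths is in the report. Values divided by their smallest step gave whole reads, within 0.05, for 88.9 to 90.5% of values under 20 reads, too few for a count test. Spliced lengths came from GENCODE release 44 on GRCh37 (canonical transcript, or the longest within 2 kb of the listed span).

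Values were fitted as log2(CPM + 1) with limma 3.58.1 in R 4.3.3 (lmFit, eBayes with trend, 4 group means, 8 residual degrees of freedom) for the 12680 genes with a mean of at least 1 CPM. Tests were two-sided with Benjamini-Hochberg adjustment over all genes, and called means an adjusted p under 0.05. The 7 contrasts share samples. Intervals of 95% use the SE and 8 degrees of freedom. Ratios were compared by exact permutation tests. Median-ratio rescaling used genes with a mean of at least 5 CPM.

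The members and gene lists were chosen with earlier results of these data known. Named genes are the members, both siRNA targets, genes of the fixed lists with the largest changes first, and per member the 3 genes with the highest Pearson r, of which 1 is not reported here. FAM84A is one of the listed neighbours. Alternatives were another pseudocount, other filters, rescalings, fewer groups, the replicate number as a block and each sample left out. In siMYCN against siCtrl and against siHAND2, all 3 same-numbered pairs of samples deviated together (r of 0.147 to 0.44 and 0.137 to 0.33). The replicate numbers of the titles were therefore taken to pair those samples. Running numbers in the sample labels also go by replicate, with the groups in the same order each time and the combined knockdown among them. The labels do not say what this order stands for. The fits in the report have no block unless one is named.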

Additional observations from a re-analysis of the deposited data

How the results depend on the processing

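The log2 fold changes (5 genes in 7 comparisons) were recomputed in up to 21 other settings. Of 730 values, 641 kept their direction and their side of the threshold, 45 lost a call, 19 gained one and 25 changed sign. After siMYCN the calls of FAM49A, MYCNOS and MEIS1 held in every setting except those without siCtrl replicate 1 or siMYCN replicate 3 for MEIS1. Spread of the share of reads in listed genes was widest in the combined knockdown, and FAM49A and MYCNOS had the lowest CPM of the 5 tested genes. With 3 samples a group no exact permutation p can go below 0.1.

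Changes of sign came with scaling, except where noted. With median-ratio rescaling, also with the replicate block, DDX1 stood at 0.054 and NBAS at 0.023 in siHAND2, MEIS1 at 0.15 and MYCNOS at 0.19 in the combined knockdown, NBAS at -0.069 in siMYCN against siHAND2, and the MYCNOS interaction at 0.063. With rescaling to the sum over listed genes NBAS stood at 0.0064 in siMYCN, DDX1 at 0.027 in siHAND2, MEIS1 at 0.14 and MYCNOS at 0.18 in the combined knockdown, and the MYCNOS interaction at 0.029. A setting chosen after seeing the data joined median-ratio rescaling with leaving out replicate 3 of the combined knockdown. It gave DDX1 0.054 and NBAS 0.023 in siHAND2, MEIS1 0.15, MYCNOS 0.14 and 1 called gene in the combined knockdown, DDX1 0.047 against siMYCN, NBAS -0.069 in siMYCN against siHAND2, and a MYCNOS interaction of 0.0093. Leaving out each sample in turn moved the FAM49A interaction between -0.012 (without replicate 1 of the combined knockdown) and 0.23.

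The number of called genes was 2 to 3 after siMYCN with a sample left out. In siHAND2 it was 1 with no filter and 1 to 2 with a sample left out. In the combined knockdown it was 1 with either rescaling and with no filter, where DDX1 and NBAS were lost, and 3 to 4 with a sample left out. Against siMYCN it was 2 with no filter. Against siHAND2 it was 2 with no filter and with only the compared groups, and 1 to 4 with a sample left out. In the interaction it was 0 to 3 with a sample left out. The cause of these moves was not tested.

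Ratios taken to the median of all tested genes in place of MYCN gave DDX1 -0.19, 0.030 and -0.24, NBAS -0.071, -0.0016 and -0.22, and MEIS1 0.40, -0.20 and 0.098 in siMYCN, siHAND2 and the combined knockdown. In siMYCN and the combined knockdown they gave MYCNOS 0.49 and 0.15, and FAM49A 0.90 and 1.50.

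Same-numbered samples correlated at over 0.1 in all 3 pairs of siMYCN with siCtrl and with siHAND2, which counts as pairing, and not in all pairs of the other comparisons (11 of 18 in all, range -0.19 to 0.44). In all, 8 of 12 samples correlated best with their own number. With the replicate block the called genes were 3, 2 and 3 in the 3 knockdowns, and the block changed no call of the 5 genes in any comparison. The block with rescaling called 3, 3 and 4. The 4 were FAM49A, MEIS1 (0.15, limma adjusted p = 0.0242), MYCNOS (0.19, 0.0109) and NBAS (-0.17, 0.0455), and against siHAND2 DDX1 (0.0319) and NBAS (0.0358) were called too. Over all genes the interaction was called for 508 genes, for 1282 with the replicate block (1262 with rescaling too), 779 and 795 with the rescalings, 154 with no filter and 263 to 4443 with a sample left out. For siMYCN, 4273 genes were called, and 6963 with only the compared groups, 6480 with block and rescaling and 6501 in the added setting. Against siHAND2, siMYCN had 4443 and 6730 with only the compared groups.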
